A study of Homo sapiens with 12 samples.

Results

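The named antisense RNAs described here are transcripts whose symbol is that of another gene with the suffix -AS1, -AS2 or -AS3. They were taken from SBC3, an established human small cell lung cancer line grown as spheroids. A gene was included when its mean over the libraries of at least 1 treatment group reached 1 CPM (raw counts scaled to the total of the library), and EPB41L4A-AS1 was left out. Of 1810 such symbols among 60649 genes, 364 met the rule. The members were thus chosen by their mean measured levels, which are given as a description. The members nearest the limit had a highest group mean of 1.002 CPM (DMTF1-AS1), 1.004 CPM (PRDX6-AS1) and 1.006 CPM (JMJD1C-AS1), and the nearest genes left out had 0.9958 CPM (TSBP1-AS1), 0.9968 CPM (TSC22D1-AS1) and 0.9975 CPM (RBM38-AS1).

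RNA was sequenced from 12 libraries in 4 groups of 3: control spheroids, spheroids given teriflunomide, spheroids given lurbinectedin, and spheroids given teriflunomide and lurbinectedin together, called the combination below. Teriflunomide inhibits DHODH, an enzyme of pyrimidine synthesis, whereas lurbinectedin binds DNA and stalls transcription. Doses and exposure times are not in the labels, all groups share 1 cell line, and the libraries were made from polyadenylated RNA, so antisense transcripts without a poly(A) tail were not measured. Libraries of 1 group are not said to come from separate cultures, so p-values measure only the spread between these samples.

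An antisense RNA is copied from the strand opposite to another gene, its sense gene. Many start near the sense promoter and run the other way (head to head), others start beyond the sense gene and run back into its end (tail to tail), and others lie wholly inside the sense gene. Known antisense RNAs act in several ways, some on the chromatin or transcription of the sense gene, some on its mRNA and some on neither, and many promoter-antisense transcripts are short-lived because the nuclear exosome degrades them.

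Library totals ran from 23206414 to 33222162 counts, and the 364 members together took 0.224% to 0.268% of them. Counts on mitochondrial genes took 6.26% to 7.17% of the control libraries, 13.8% to 17.1% of the lurbinectedin libraries, 8.42%, 8.43% and 22.6% of the teriflunomide libraries and 14.6%, 24.9% and 13.1% of the combination libraries. Teriflunomide replicate 3 and combination replicate 2 thus stand apart from their groups in that share, whose part in the results below was not tested. The counting is not stated to use strand, so this was checked in the files. Among 771 genes whose exons are wholly covered by exons of the opposite strand, 467 (60.6%) had a count, against 55 of 1146 (4.80%) covered by exons of the same strand, so the counts followed strand. Some reads still reach the wrong strand: 64 wholly covered genes lying opposite a gene of at least 100 CPM had a median of 1.02% of that gene's counts per base, with quartiles of 0.545% and 2.23%.

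Of the 364 members, 359 have a sense gene in the files and the other 5 belong to HOX clusters (HOXA-AS2, HOXA-AS3, HOXB-AS1, HOXB-AS3 and HOXC-AS3), for which the name gives a cluster and not a gene. In 173 pairs the genes overlap head to head, and in 23 they lie head to head without overlap. A further 70 overlap tail to tail, 55 antisense RNAs lie inside the sense gene, and 34 sense genes lie inside the antisense RNA. The last 4 are LYPLAL1-AS1, LYRM4-AS1 and DNAJC9-AS1, over 5 kb from their sense gene, and FAM131B-AS2, on the same strand as FAM131B. Exon bases are shared in 280 pairs. Over all 359 pairs, with or without sharing, the median share was 6.20% of the antisense RNA's exon bases. For 330 pairs both genes were expressed enough to test. Per kb of exon, the antisense RNA was below its sense gene in control libraries in 268 of these pairs, at a median of 15.2% of the sense level, and it was at least 10 times higher in 14. In 40 pairs with shared exon bases the antisense level per base was at or under 2.23% of the sense gene, the upper quartile of wholly covered genes. These pairs share at most 50% of the antisense exon bases, so what wrong-strand reads gave them was not measured.

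The most abundant members responded in different directions. Levels from here on are CPM after TMM scaling, and each change is a log2 fold change with its standard error from edgeR's quasi-likelihood test over 16683 genes, with Benjamini-Hochberg adjusted p and a call at adjusted p under 0.05. FGD5-AS1 (chr3:14920347-14948424, GRCh38) had 152, 159 and 149 CPM in control libraries, 153, 148 and 146 under teriflunomide, 188, 184 and 186 under lurbinectedin and 190, 198 and 169 under both drugs. All 6 libraries exposed to lurbinectedin lay above the other 6, by a small margin (log2 fold change 0.28, SE 0.0860, adjusted p 0.0106 for lurbinectedin), and the call was lost with library size as the only scaling (0.04, adjusted p 0.760), with no filter on low counts (0.20, adjusted p 0.262) and without control replicate 3 (adjusted p 0.0535). Its sense gene FGD5 was too low to test.

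OIP5-AS1 (chr15:41283990-41309737), also known as Cyrano, is a conserved RNA with a binding site for the microRNA miR-7. It had 202, 209 and 193 CPM in control libraries, 216, 221 and 279 under teriflunomide, 96.0, 106 and 96.2 under lurbinectedin and 117, 108 and 94.2 under both drugs. The lurbinectedin libraries were about 2.02 times lower than control, with no overlap (log2 fold change -1.02, SE 0.117, adjusted p 2.94e-06). OIP5, a kinetochore protein gene that meets it tail to tail, stood at 10.8, 11.8 and 10.6 CPM in control and 10.6, 11.9 and 11.8 with lurbinectedin, so the groups overlap (log2 fold change 0.05, adjusted p 0.830).

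IL21-AS1 (chr4:122618983-122689156) gave the smallest adjusted p of the members. It had 44.3, 42.0 and 42.0 CPM in control libraries, 58.1, 61.0 and 54.7 under teriflunomide, 231, 220 and 217 under lurbinectedin and 250, 264 and 244 under both drugs. The 4 groups do not overlap, and the rise with lurbinectedin was 5.21-fold (log2 fold change 2.38, SE 0.0888, adjusted p 8.60e-11). IL21, a cytokine gene that overlaps it head to head, fell from 26.5, 30.3 and 25.8 CPM in control to 10.5, 12.2 and 9.91 with lurbinectedin (log2 fold change -1.34, SE 0.222, adjusted p 9.55e-05). There were 1.67, 1.39 and 1.63 IL21-AS1 counts per IL21 count in control libraries and 22.0, 18.1 and 21.9 with lurbinectedin.

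THAP9-AS1 rose with lurbinectedin from 31.3, 31.3 and 32.1 CPM to 111, 111 and 95.7 (log2 fold change 1.75, SE 0.201, adjusted p 2.81e-06). Its start lies 276 bases from that of THAP9, a gene derived from a DNA transposase, which rose less (log2 fold change 0.58, SE 0.171, adjusted p 0.00725). ENTPD1-AS1 rose by a log2 fold change of 0.57 (SE 0.0886, adjusted p 5.34e-05), from 41.4, 41.9 and 40.7 CPM to 61.2, 61.6 and 60.9, with a span of 357 kb. ID2-AS1 fell from 51.5, 52.1 and 53.3 CPM to 26.3, 28.3 and 26.7 (log2 fold change -0.95, SE 0.290, adjusted p 0.00949). Its sense gene ID2, an inhibitor of helix-loop-helix transcription factors, overlapped between the groups (log2 fold change 0.07, adjusted p 0.723). In teriflunomide libraries ID2-AS1 had 42.3, 45.5 and 118 CPM, the last in replicate 3.

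**Figure D1:**
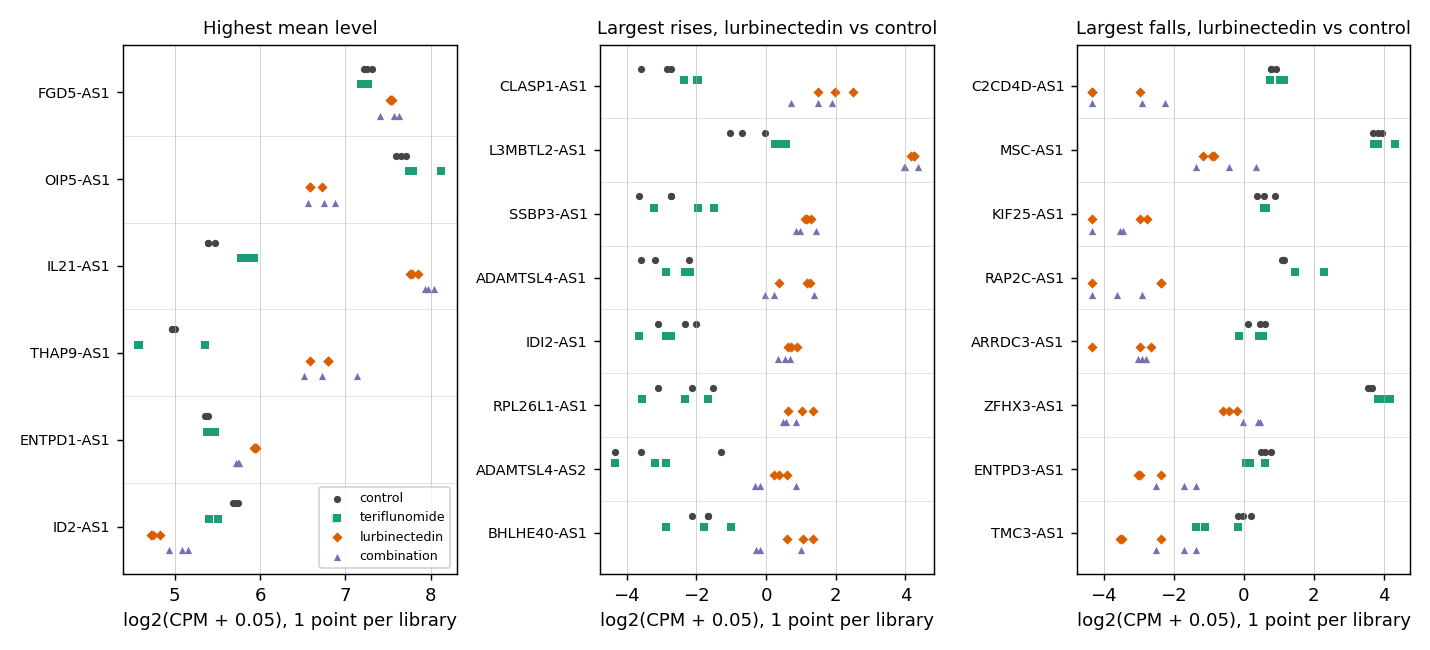
Level of the 6 most abundant antisense RNAs and of the 8 largest rises and 8 largest falls with lurbinectedin, as log2(CPM + 0.05) on the horizontal axis with 1 point per library and 3 libraries per group. In the middle and right panels the lurbinectedin and combination points lie together, away from the control points of the same gene.

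Over all members, lurbinectedin changed levels in both directions. Of 364 tested, 125 rose and 107 fell against control (34.3% and 29.4%), where 36.0% and 35.7% of all genes tested rose and fell, and 71.6% were called in either direction. A change of at least 2-fold was called for 155 members (42.6%), against 44.1% of all genes. The median log2 fold change was 0.12 over the members and 0.05 over all genes. With library size as the only scaling the medians were -0.11 and -0.18, and 41.5% of 217 called members were higher in place of 53.9% of 232. Part of these counts follows from the rule, because a member that reaches 1 CPM in only some groups had to differ between groups. The 213 members at 1 CPM or more in all 4 groups had 119 calls (55.9%), 76 higher and 43 lower, and the other 151 had 113 calls (74.8%).

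The largest rises began from levels close to 0. These members were under 1 CPM in control and met the rule through other groups. The rule thus favours a rise, and their adjusted p and separation of groups are given as a description. CLASP1-AS1 (chr2:121530422-121532705) lies inside CLASP1, which encodes a protein that stabilises microtubule plus ends. It had 0.0335, 0.1 and 0.0896 CPM in control libraries, 0.146, 0.209 and 0.204 under teriflunomide, 5.62, 2.73 and 3.92 under lurbinectedin and 2.79, 3.66 and 1.59 under both drugs. Each library exposed to lurbinectedin was above each library that was not (log2 fold change 5.68, SE 0.479, adjusted p 1.24e-07 for lurbinectedin). CLASP1 moved the other way, from 94.3, 96.4 and 96.9 CPM to 3.78, 4.96 and 4.14 (log2 fold change -4.48, SE 0.210, adjusted p 4.94e-10). In control, CLASP1-AS1 had 1.25% of the CLASP1 level per base. That lies within the quartiles of 0.545% and 2.23% for wholly covered genes, but only 47.5% of its exon bases are shared. The ratio of their counts rose from 0.000355, 0.00104 and 0.000924 to 1.49, 0.551 and 0.947.

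SSBP3-AS1 (chr1:54236440-54239063) lies inside SSBP3, a gene for a cofactor of LIM-domain transcription factors. It rose from 0.101, 0.1 and 0.0299 CPM in control to 2.23, 2.38 and 2.11 with lurbinectedin (log2 fold change 4.82, SE 0.430, adjusted p 2.27e-07), while SSBP3 fell from 246, 256 and 266 CPM to 14.4, 17.1 and 18.5 (log2 fold change -3.94, SE 0.171, adjusted p 2.67e-10). In both genes the groups are far apart. L3MBTL2-AS1 lies inside L3MBTL2, a gene of the Polycomb family, and rose from 0.435, 0.935 and 0.567 CPM to 17.8, 19.1 and 18.9 (log2 fold change 4.84, SE 0.224, adjusted p 4.32e-10). L3MBTL2 itself had 44.3, 46.5 and 49.5 CPM in control and 61.8, 56.6 and 63.6 with lurbinectedin, a difference that was not called (log2 fold change 0.38, adjusted p 0.0739).

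Of the other members with the largest rises, 2 face ADAMTSL4, which encodes a protein of fibrillin microfibrils. ADAMTSL4-AS1, at its end, rose from 0.167, 0.0334 and 0.0597 CPM to 2.23, 2.34 and 1.24 (log2 fold change 4.42, SE 0.560), and ADAMTSL4-AS2, at its start, from 0, 0.0334 and 0.358 CPM to 1.45, 1.25 and 1.13 (log2 fold change 3.16, SE 0.658). ADAMTSL4 rose too, from 9.74, 8.25 and 9.19 CPM to 17.4, 19.6 and 19.1 (log2 fold change 1.04, SE 0.150, adjusted p 2.46e-05), so all 3 transcripts of the locus were higher. IDI2-AS1 (log2 fold change 3.50, SE 0.333), RPL26L1-AS1 (3.41, SE 0.430) and BHLHE40-AS1 (3.07, SE 0.473) complete the 8 largest rises. Each starts head to head with its sense gene. BHLHE40, a clock-linked transcriptional repressor, had 14.5, 14.5 and 14.0 CPM in control and 15.6, 13.8 and 14.8 with lurbinectedin, and RPL26L1, a ribosomal protein gene, had 24.9, 28.2 and 25.1 CPM and then 22.7, 20.5 and 23.0. Neither sense gene was called, and IDI2 was too low to test. In control, SSBP3-AS1 (0.0776% of SSBP3 per base), L3MBTL2-AS1 (1.93%), RPL26L1-AS1 (0.293%) and BHLHE40-AS1 (1.08%) also lay under 2.23% of the sense level. That level comes from wholly covered genes, and these members share only 2.9%, 30%, 1.8% and 8.4% of their exon bases. What wrong-strand reads gave them was not measured.

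The largest falls ended near the limit of detection. The members of this paragraph were under 1 CPM with lurbinectedin and met the rule through other groups, which favours a fall. C2CD4D-AS1 (chr1:151841877-151850385) had 1.67, 1.84 and 1.67 CPM in control, 1.64, 2.0 and 2.15 under teriflunomide, 0, 0.0781 and 0 under lurbinectedin and 0, 0.0842 and 0.159 under both drugs. It gave 161 counts over the control libraries and 2 over the lurbinectedin libraries, a depth-corrected ratio of 63.6 with an exact 95% interval of 17.3 to 530, which covers counting error only. KIF25-AS1 fell from 1.44, 1.24 and 1.82 CPM to 0.0968, 0.0781 and 0, and RAP2C-AS1, head to head with a gene for a Ras-related GTPase, from 2.18, 2.14 and 2.06 CPM to 0.145, 0 and 0.145. With the combination these genes had 2 and 3 counts in all, against 141 and 198 in control (ratios 62.5, interval 17.0 to 521, and 58.5, interval 19.7 to 286). ENTPD3-AS1 (log2 fold change -3.91, SE 0.390) and TMC3-AS1 (-3.73, SE 0.553), each wrapped around its sense gene, fell from 1.67, 1.47 and 1.34 CPM to 0.145, 0.0781 and 0.0726 and from 1.10, 0.935 and 0.836 CPM to 0.145, 0.0391 and 0.0363. None of C2CD4D, KIF25, ENTPD3 and TMC3 was expressed enough to test.

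MSC-AS1 and ZFHX3-AS1 fell from much higher levels. Both were also under 1 CPM with lurbinectedin and met the rule through other groups, which favours a fall. MSC-AS1 runs 290 kb and encloses MSC, which encodes the repressor musculin. It had 15.5, 14.3 and 13.0 CPM in control, 14.3, 13.2 and 20 under teriflunomide, 0.484, 0.508 and 0.400 under lurbinectedin and 1.23, 0.337 and 0.701 under both drugs. The control and lurbinectedin groups are 30.6-fold apart (log2 fold change -4.94, SE 0.318, adjusted p 8.54e-09). MSC, with a span of 2.85 kb, went from 17.9, 14.7 and 15.9 CPM to 11.8, 10.4 and 11 (log2 fold change -0.55, SE 0.207, adjusted p 0.0282), a call that was lost when any 1 of control replicates 1 and 3 and lurbinectedin replicates 2 and 3 was left out (adjusted p 0.0540 to 0.0921).

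ZFHX3-AS1 (chr16:72665123-72822781) fell from 11.6, 12.6 and 12.4 CPM to 0.823, 0.703 and 0.617 (log2 fold change -4.10, SE 0.184, adjusted p 3.09e-10). ZFHX3, a homeobox transcription factor gene with a span of 1109 kb, fell alike, from 56.6, 57.9 and 68.5 CPM to 3.63, 4.80 and 4.14 (log2 fold change -3.86, SE 0.233), and the antisense to sense ratio was not called (log2 ratio change -0.21, adjusted p 0.418, limma). SLC38A4-AS1 and SLC38A4, an amino acid transporter gene, also fell together, the antisense RNA from 0.938, 0.902 and 1.19 CPM to 0.0484, 0.117 and 0.0726 (log2 fold change -3.57, SE 0.428) and the sense gene from 0.871, 0.869 and 1.04 CPM to 0.0968, 0.117 and 0.145 (log2 fold change -2.89, SE 0.382). Along with MSC-AS1 and ADAMTSL4-AS1, these are the pairs with the largest antisense change among those whose genes moved the same way. SLC38A4-AS1 too was under 1 CPM with lurbinectedin and met the rule through other groups, so the rule favours its fall.

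Members and sense genes were then compared pair by pair. Of 330 pairs, both genes rose with lurbinectedin in 49 and both fell in 53. The antisense RNA rose while its sense gene fell in 33 pairs, and fell while its sense gene rose in 25. In 48 pairs the call was on the antisense RNA alone, in 85 on the sense gene alone, and in 37 on neither. Opposite directions thus made up 36.2% of the 160 pairs in which both genes were called, against 37.0% over all 6039 pairs of opposite-strand neighbours tested. Across pairs, Spearman's rho between the 2 fold changes was 0.23, and it was 0.19 over all neighbour pairs. It was 0.21 in the 69 pairs without shared exon bases and 0.24 in the 261 pairs with them. These correlations are descriptions over genes of the same libraries.

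The ratio of antisense to sense counts, which does not depend on library scaling, was tested with limma over the same 6039 pairs. Lurbinectedin changed it in 222 of the 330 pairs (67.3%), against 65.6% of all neighbour pairs. The ratio rose in 137 and fell in 85, with a median log2 change of 0.27. RASAL2-AS1, ARRDC3-AS1, CCNY-AS1 and EHBP1-AS1 follow CLASP1-AS1 and SSBP3-AS1 among the largest ratio changes in pairs with opposite calls. ARRDC3-AS1 (chr5:91380349-91612566) fell from 1.04, 1.34 and 1.46 CPM to 0, 0.0781 and 0.109 (log2 fold change -4.16, SE 0.460, adjusted p 1.90e-06). ARRDC3, an arrestin-domain gene, rose from 15.8, 17.7 and 15.2 CPM to 124, 109 and 99.6 (log2 fold change 2.77, SE 0.261, adjusted p 3.91e-07). ARRDC3-AS1 was under 1 CPM with lurbinectedin and met the rule through other groups, which favours a fall. Its adjusted p and separation of groups are thus given as a description. Both genes have groups that do not overlap, and here the antisense RNA is the longer gene (232 kb against 14.7 kb).

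In the other pairs of that kind the sense gene is the longer one. CCNY, the cyclin Y gene, fell from 83.3, 83.8 and 81.6 CPM to 3.73, 5.04 and 4.58 (log2 fold change -4.21, SE 0.249), and CCNY-AS1 had 0.971, 0.835 and 0.925 CPM and then 2.28, 1.33 and 1.27 (log2 fold change 0.81, SE 0.297, adjusted p 0.0246). The CCNY-AS1 call was lost with library size as the only scaling (0.57, adjusted p 0.0708) and without control replicate 2 (0.0725), control replicate 3 (0.0568) or lurbinectedin replicate 1 (0.157). EHBP1, which encodes an adaptor of endocytic recycling, fell from 406, 421 and 402 CPM to 28.2, 29.6 and 26.7. EHBP1-AS1 had 0.268, 0.468 and 0.388 CPM and then 0.823, 0.938 and 0.654 (log2 fold change 1.09, SE 0.467, adjusted p 0.0498), at 0.227% of EHBP1 per base in control, and this call was lost in 10 of the 12 fits that left out 1 library. EHBP1-AS1 was under 1 CPM in control and with lurbinectedin and met the rule through another group.

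**Figure D2:**
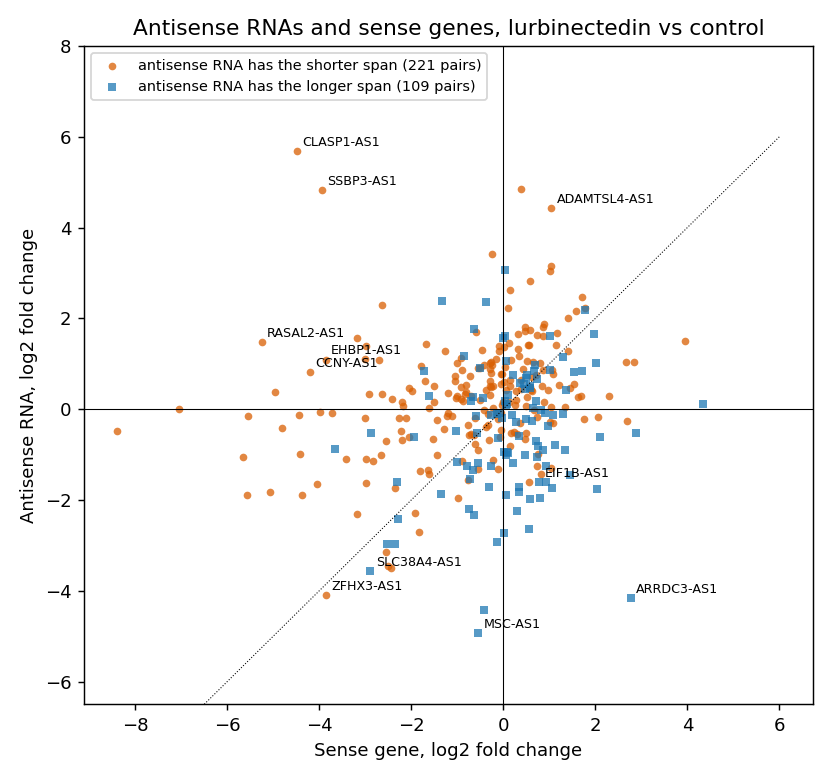
Log2 fold change of each antisense RNA (vertical) against that of its sense gene (horizontal) with lurbinectedin, 1 point per pair for 330 pairs, coloured by which gene has the longer genomic span. The upper left holds mostly pairs with a shorter antisense RNA and the lower right mostly pairs with a longer one, and the dotted line marks equal changes.

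The pairs with the closest starts were also read on their own. Of 196 head-to-head pairs, 127 have starts within 1000 bases. Among the 28 tested pairs with starts within 150 bases, both genes rose in 3, both fell in 5, and they moved in opposite directions in 6, which is 42.9% of the 14 with both genes called, against 37.0% over all neighbour pairs. The ratio was called in 17 (60.7%), against 65.6% of all neighbour pairs, so neither share is a result about close starts. The 4 windows below hold both starts of the pairs with the closest starts among those called in opposite directions, and are shown so that the short distance between the starts can be seen. Each is 300 bases of RefSeq sequence (GRCh38.p14), 250 before and 50 from the RefSeq start of the antisense RNA, on its strand, 5′ to 3′, with every CG in capitals.

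EIF1B-AS1: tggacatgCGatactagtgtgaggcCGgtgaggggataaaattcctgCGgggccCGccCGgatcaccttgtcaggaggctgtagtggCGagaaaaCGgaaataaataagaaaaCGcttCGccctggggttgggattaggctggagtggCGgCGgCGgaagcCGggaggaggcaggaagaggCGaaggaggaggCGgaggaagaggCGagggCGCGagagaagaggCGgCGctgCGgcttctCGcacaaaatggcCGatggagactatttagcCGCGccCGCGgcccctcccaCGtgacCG
TRIM52-AS1: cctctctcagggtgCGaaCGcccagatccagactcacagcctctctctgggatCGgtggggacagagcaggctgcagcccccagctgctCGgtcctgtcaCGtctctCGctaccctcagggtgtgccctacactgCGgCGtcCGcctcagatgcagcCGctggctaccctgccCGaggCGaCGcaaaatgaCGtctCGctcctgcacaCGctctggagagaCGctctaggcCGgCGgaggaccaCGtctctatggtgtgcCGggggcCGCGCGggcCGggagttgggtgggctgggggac
RTCA-AS1: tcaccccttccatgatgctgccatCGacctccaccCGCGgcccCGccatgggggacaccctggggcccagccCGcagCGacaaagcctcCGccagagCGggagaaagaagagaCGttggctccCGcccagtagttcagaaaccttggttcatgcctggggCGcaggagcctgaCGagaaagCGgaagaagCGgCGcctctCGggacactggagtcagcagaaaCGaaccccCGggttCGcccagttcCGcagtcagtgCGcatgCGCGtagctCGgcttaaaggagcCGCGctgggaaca
RASAL2-AS1: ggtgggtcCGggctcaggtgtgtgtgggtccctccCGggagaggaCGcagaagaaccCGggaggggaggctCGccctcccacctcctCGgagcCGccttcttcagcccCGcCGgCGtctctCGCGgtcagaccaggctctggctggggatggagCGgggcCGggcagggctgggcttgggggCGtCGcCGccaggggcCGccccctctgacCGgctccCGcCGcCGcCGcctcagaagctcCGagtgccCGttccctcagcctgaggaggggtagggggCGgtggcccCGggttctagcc

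Counted along these windows, the antisense start in the files is at base 251 and the sense start at base 242 for EIF1B-AS1 (chr3:40309649-40309948, minus strand). The positions are 208 and 178 for TRIM52-AS1 (chr5:181260962-181261261, plus strand), 246 and 209 for RTCA-AS1 (chr1:100266125-100266424, minus strand), and 260 and 140 for RASAL2-AS1 (chr1:178093944-178094243, minus strand). The starts lie 9, 30, 37 and 120 bases apart, and the genes of each pair do not overlap. The windows hold 29, 25, 26 and 27 CG. A promoter window was found for 284 of the 364 members, with a median of 24 CG, against 25 for 293 sense genes and 14 for all promoters in the table. At least 10 CG were present in 83.5% of member windows and in 56.4% of all.

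EIF1B, a translation initiation factor gene with a span of 2.72 kb, rose from 40.9, 42.9 and 42.2 CPM to 73.3, 73.9 and 69.7 with lurbinectedin (log2 fold change 0.78, SE 0.103, adjusted p 1.04e-05). EIF1B-AS1, with a span of 249 kb, fell from 0.971, 0.869 and 0.985 CPM to 0.678, 0.274 and 0.0363 (log2 fold change -1.61, SE 0.477, adjusted p 0.00771). The groups do not overlap, but the 3 lurbinectedin libraries are far apart. EIF1B-AS1 was under 1 CPM with lurbinectedin and met the rule through other groups, which favours a fall. Its adjusted p and separation of groups are thus given as a description. TRIM52-AS1 fell from 5.36, 4.61 and 6.0 CPM to 3.49, 2.38 and 2.80 (log2 fold change -0.89, SE 0.185, adjusted p 0.000655), and TRIM52, a tripartite-motif gene, rose from 4.39, 4.51 and 4.33 CPM to 10.8, 12.3 and 10.3 (log2 fold change 1.34, SE 0.175). Here too the antisense RNA is the longer gene, at 11.1 kb against 6.72 kb.

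RTCA-AS1, with a span of 14.7 kb, rose from 4.35, 5.14 and 4.48 CPM to 11.9, 12.3 and 10.2 (log2 fold change 1.30, SE 0.301, adjusted p 0.00152). RTCA, a 26.6 kb gene for an RNA 3′-phosphate cyclase, fell from 60.0, 64.3 and 60.8 CPM to 44.6, 45.2 and 44.1 (log2 fold change -0.47, SE 0.101, adjusted p 0.000836). RASAL2-AS1 showed the widest split of the 4. RASAL2-AS1 had means under 1 CPM in control and with teriflunomide and met the rule through other groups. The rule thus favours its rise, and its adjusted p and separation of groups are given as a description. It had 0.670, 0.969 and 0.746 CPM in control, 0.937, 1.02 and 0.408 under teriflunomide, 1.94, 2.46 and 2.25 under lurbinectedin and 1.88, 1.98 and 1.98 under both drugs (log2 fold change 1.48, SE 0.270, adjusted p 0.000221 for lurbinectedin). RASAL2, a gene for a Ras GTPase-activating protein with a span of 390 kb, had 46.9, 48.0 and 53.9 CPM in control and 1.16, 1.33 and 1.38 with lurbinectedin (log2 fold change -5.25, SE 0.242, adjusted p 4.21e-10). The counts of RASAL2-AS1 went from 0.0143, 0.0202 and 0.0138 per RASAL2 count to 1.67, 1.85 and 1.63.

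**Figure D3:**
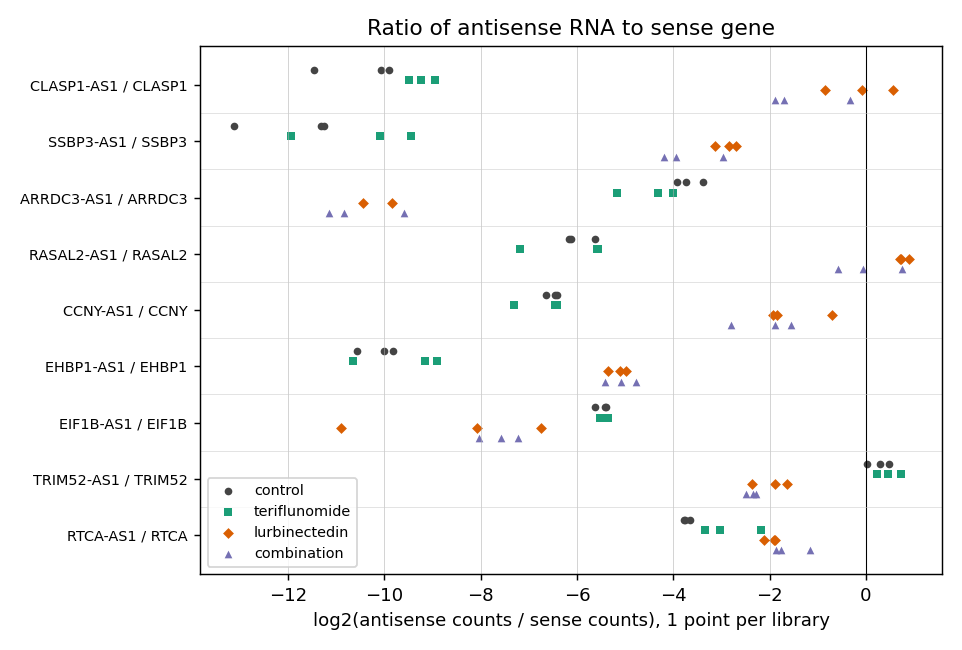
Antisense counts per sense count on a log2 axis, 1 point per library and 3 libraries per group, for the 6 pairs with the largest ratio changes among those called in opposite directions and for the 3 further pairs with the closest starts. Lurbinectedin and combination libraries lie to one side of the control libraries in every pair drawn. ARRDC3-AS1 had 0 counts in lurbinectedin replicate 1, which is not drawn.

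The genomic span of a gene moved with the direction of its change. In the 33 pairs in which the antisense RNA rose and the sense gene fell, the antisense RNA was the shorter gene in 27, with median spans of 10.3 kb and 87.0 kb. In the 25 pairs of the reverse kind it was the longer gene in 18, with median spans of 53.3 kb and 16 kb. The longer gene was therefore the one that fell in 45 of 58 pairs (77.6%), where it fell in 947 of 1111 (85.2%) of all opposite-strand neighbours with opposite calls. Spearman's rho between the span ratio and the ratio change was -0.46 over the 330 pairs and -0.49 over all neighbour pairs. It was -0.56 in the 167 pairs that overlap head to head and -0.17 in the 52 pairs with the antisense RNA inside the sense gene. These are descriptions across pairs, not tests.

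Over single members, rho between span and log2 fold change was -0.35 with lurbinectedin (SD 0.0257 between the values from the 3 lurbinectedin libraries), against -0.61 for the sense genes and -0.57 for all nuclear genes tested. The members are the shorter set, with a median span of 14.7 kb against 32.8 kb for sense genes. In 5 span bins holding equal numbers of all genes, the median log2 fold change of the members was 0.41, 0.33, 0.30, -0.28 and -1.05 from the shortest to the longest bin. It was 0.69, 0.62, 0.28, -0.36 and -1.86 for all genes. In the longest bin 34 of 57 members fell (59.6%) and 8 rose (14.0%), where 83.7% of all genes fell and 5.83% rose. By position, the 55 antisense RNAs inside their sense gene had a median of 0.73, with 27 higher (49.1%) and 7 lower (12.7%). Of all genes in the shortest span bin, 50.95% rose and 12.52% fell, with a median of 0.69. Of the 110 members in that bin, 40.9% rose and 17.3% fell, with a median of 0.41. The antisense RNAs inside their sense gene are not all in that bin (RBMS3-AS2, for instance, spans 117 kb). Position was not separated from span, and its own part was not tested. The 173 overlapping head to head had a median of 0.02, with 51 higher (29.5%) and 57 lower (32.9%), near the 36.0% and 35.7% of all genes tested.

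**Figure D4:**
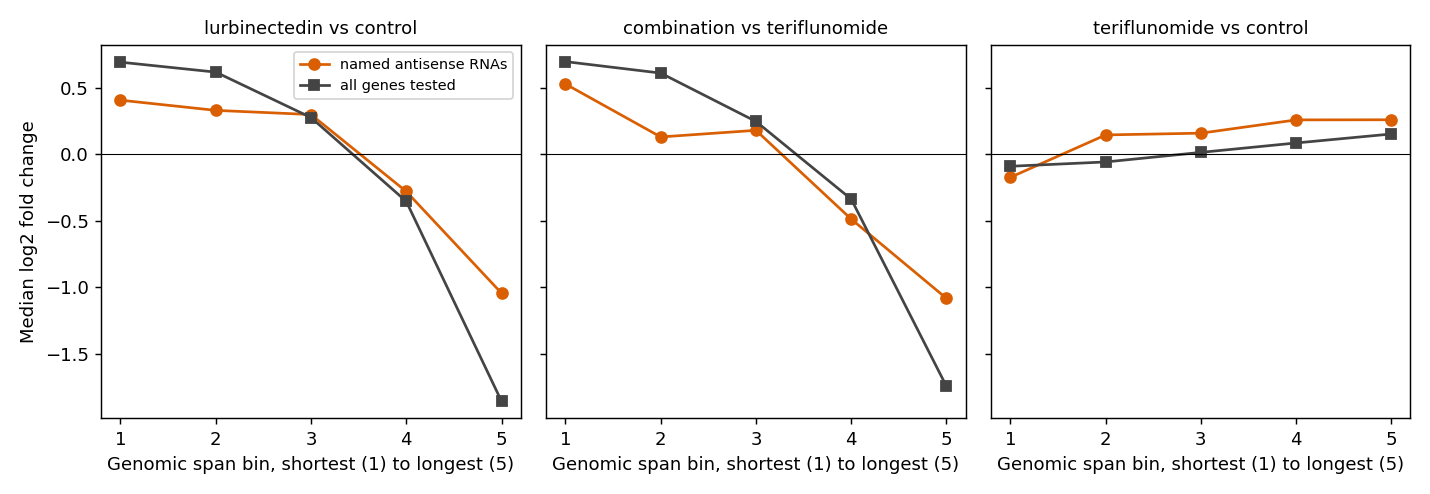
Median log2 fold change of the named antisense RNAs (circles) and of all genes tested (squares) in 5 bins of genomic span, for 3 comparisons. With lurbinectedin, alone or on top of teriflunomide, both lines go from above 0 in the shortest bin to below 0 in the longest, and the member line is the less steep.

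Teriflunomide alone changed few members. Of 364, 21 rose and 13 fell against control, 34 in all (9.34%), where 3.88% and 2.13% of all genes tested rose and fell, 6.01% in all. The median log2 fold change was 0.11 over members and 0.03 over all genes. The count rests on single libraries: it was 8, 10 and 11 without control replicate 1, 2 or 3, 19 without teriflunomide replicate 2, 19 and 20 without lurbinectedin replicate 2 or 3, and 42 without teriflunomide replicate 3, of which 30 were among the 34. It was 8 with only the groups compared in the fit, 52 by DESeq2 (11.4% of all genes) and 10 when only library size was used for scaling. Apart from DESeq2, the shares over all genes in these fits are not given here. The counts show only how the total for the members moves. The 21 that rose had a median span of 38.6 kb and the 13 that fell 5.29 kb, and rho between span and fold change was 0.31 over members and 0.22 over all genes, opposite in sign to lurbinectedin.

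PRRT3-AS1 had the smallest adjusted p with teriflunomide. It had 4.08, 3.67 and 3.88 CPM in control, 1.87, 1.98 and 1.67 under teriflunomide, 0.968, 1.05 and 0.908 under lurbinectedin and 0.904, 0.842 and 0.957 under both drugs. Teriflunomide lowered it with no overlap (log2 fold change -1.07, SE 0.154, adjusted p 0.00182), and lurbinectedin lowered it further from control (-1.99, SE 0.171, adjusted p 1.43e-07). PRRT3 had 3.62, 3.27 and 4.0 CPM in control and 4.19, 4.46 and 3.10 with teriflunomide, and was not called (adjusted p 0.731).

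PROX1-AS1 and CHRM3-AS2 went up with teriflunomide and down with lurbinectedin. PROX1-AS1 was under 1 CPM with lurbinectedin and met the rule through other groups, which favours a fall there. PROX1-AS1 lies head to head with PROX1, a homeobox gene of neuroendocrine and lymphatic cells, and had 1.27, 1.37 and 1.46 CPM in control, 2.87, 3.68 and 4.66 with teriflunomide (log2 fold change 1.44, SE 0.220, adjusted p 0.00276), 0.242, 0.469 and 0.327 with lurbinectedin (-1.95, SE 0.301) and 0.470, 0.590 and 0.383 with the combination. PROX1 rose with each drug alone, from 3.42, 2.87 and 3.37 CPM to 4.83, 5.24 and 8.68 with teriflunomide (0.95, adjusted p 0.0208) and 5.52, 5.04 and 6.17 with lurbinectedin (0.79, adjusted p 0.00435). CHRM3-AS2, inside the gene of the M3 muscarinic receptor, had 8.77, 8.18 and 9.40 CPM in control, 15.6, 19.7 and 21.4 with teriflunomide (1.10, SE 0.175, adjusted p 0.00351), 3.44, 5.43 and 3.38 under lurbinectedin and 6.47, 5.69 and 6.12 under both drugs. CHRM3 had 25.6, 28.7 and 26.0 CPM in control and 24.7, 23.0 and 28.4 with teriflunomide (-0.08, adjusted p 0.746).

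PRKAG2-AS1, whose start lies 83 bases from that of PRKAG2, an AMP-activated kinase subunit gene, fell from 2.58, 2.04 and 2.69 CPM to 0.527, 1.08 and 0.374 (log2 fold change -1.86, SE 0.302, adjusted p 0.00405, and 0.0544 with only the groups compared in the fit). PRKAG2-AS1 had a mean under 1 CPM with teriflunomide and met the rule through other groups, which favours a fall. PRKAG2 had 6.50, 6.95 and 6.42 CPM and then 9.23, 7.84 and 13.2 (0.60, adjusted p 0.0566). CARD8-AS1, next to the inflammasome sensor gene CARD8, rose from 2.31, 2.37 and 2.18 CPM to 4.10, 3.83 and 4.77 (0.89, SE 0.149, adjusted p 0.00478), and USP2-AS1, next to a deubiquitinase gene, fell from 2.58, 2.91 and 2.57 CPM to 1.41, 1.29 and 0.885 (-1.16, SE 0.206, adjusted p 0.00644). The calls of these 6 members held without teriflunomide replicate 3, at adjusted p 0.000916 to 0.00593. In pairs, the antisense to sense ratio was called with teriflunomide in 17 of 330 (5.15%; 5.17% of all neighbour pairs), 9 higher and 8 lower. In no pair were the genes called in opposite directions (0 of 5 called in both, against 17.9% over all neighbour pairs). With only 5 such pairs, this is not a result about the members.

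**Figure D5:**
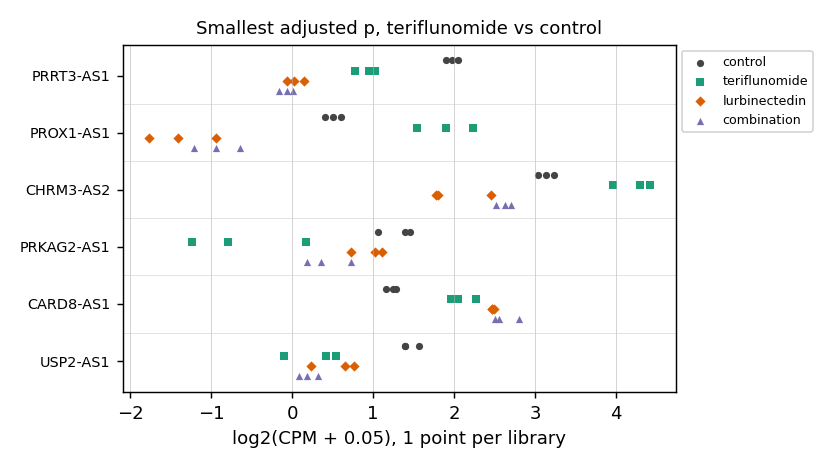
Level of the 6 antisense RNAs with the smallest adjusted p for teriflunomide against control, as log2(CPM + 0.05) with 1 point per library and 3 libraries per group. The teriflunomide points do not overlap the control points in any of the 6, and PROX1-AS1 and CHRM3-AS2 lie on the other side of control with lurbinectedin.

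The combination was compared with each drug alone. Against control it raised 126 members and lowered 101, where 34.1% and 34.4% of all genes rose and fell (68.4% in all). Against teriflunomide alone 129 rose and 118 fell (67.9% called; 70.9% of all genes, 35.2% higher and 35.8% lower). That comparison shares no library with lurbinectedin against control, so the response to lurbinectedin can be read in other libraries. The 2 comparisons are not fully independent, because they share 1 estimate of the spread and separate cultures are not stated. Of the 232 members called for lurbinectedin against control, 207 were called in the same direction when it was added to teriflunomide, 230 had the same sign and 0 were called the opposite way. The shared members are 89.2% of the first list and 83.8% of the second, where the shares over all genes tested were 88.7% and 89.6%, with 98.7% of the first list having the same sign and 10 genes called the opposite way. The rule itself favours such overlap, since 45 members reached 1 CPM only with lurbinectedin or the combination and 70 only in control or with teriflunomide. Among the 213 members at 1 CPM or more in all 4 groups, 105 were shared, 88.2% of the 119 and 80.2% of the 131 called. IL21-AS1 rose there by 2.12 (SE 0.0877), CLASP1-AS1 by 3.8 (SE 0.420) and L3MBTL2-AS1 by 3.75 (SE 0.204) on the log2 scale, and RAP2C-AS1 (-6.38, SE 0.553), KIF25-AS1 (-5.69, SE 0.531) and MSC-AS1 (-4.35, SE 0.290) fell. CLASP1-AS1 is one of the 45 members above, and RAP2C-AS1, KIF25-AS1 and MSC-AS1 are among the 70. Between span and fold change, rho was -0.42 over members and -0.59 over all genes. The antisense to sense ratio was called in 219 of 330 pairs (65.5% of all neighbour pairs), 135 higher and 84 lower, and the longer gene was the one that fell in 52 of 67 pairs with opposite calls (77.6%), against 881 of 1047 (84.1%) of all neighbour pairs.

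Against lurbinectedin alone the combination differed in 0 of 364 members by edgeR (0.0% of all genes; smallest adjusted p 0.158), with 28 members at an unadjusted p under 0.05 (15.6% of all genes) and 2 called by DESeq2 (3.5% of all genes). Leaving out teriflunomide replicate 3, which enters the shared spread but not this comparison, gave 9 calls. The antisense to sense ratio gave 0 calls as well (0.0% of all neighbour pairs), with 36 pairs at an unadjusted p under 0.05. The interaction, the effect of teriflunomide on top of lurbinectedin minus its effect alone, was called in 0 members by edgeR (0.258% of all genes; smallest adjusted p 0.112), with 44 at an unadjusted p under 0.05 (10.3% of all genes), 3 called by DESeq2 (1.55% of all genes) and 6 called by edgeR without teriflunomide replicate 3. For the pair ratio it was called in 0 of 330 pairs (0.199% of all neighbour pairs). Shares over all genes are not given for the 9 and 6 calls without teriflunomide replicate 3. Nor is the share over all neighbour pairs given for the 36 pairs. These counts are therefore not results about the members.

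A few members share nearly all their exon bases with the sense gene. GJD3-AS1 lies wholly (100% of exon bases) opposite the single exon of the connexin gene GJD3 and had 7.10, 6.88 and 7.4 CPM in control and 10.2, 9.26 and 9.44 with lurbinectedin, which was not called (adjusted p 0.0881, but 4e-04 with only the groups compared in the fit and 0.00978 without teriflunomide replicate 3). Per kb of exon it stood at 1023% of GJD3 in control, which had 1.37, 1.37 and 1.34 CPM. PCF11-AS1 lies wholly (100%) opposite the exons of PCF11, a termination factor gene, and rose from 0.871, 1.30 and 1.10 CPM to 2.57, 2.7 and 2.11 (log2 fold change 1.16, SE 0.345, adjusted p 0.00792). PCF11 had 96.2, 99.4 and 103 CPM and then 127, 128 and 120, and was not called (adjusted p 0.0600). EML2-AS1, with 95% of its exon bases opposite exons of the microtubule-binding gene EML2, rose from 1.91, 1.77 and 2.03 CPM to 3.87, 3.48 and 4.32 (log2 fold change 1.03, SE 0.208, adjusted p 0.000511), and EML2 rose as well (0.65, SE 0.196, adjusted p 0.00839). In this locus both strands were higher with lurbinectedin.

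Genes of the machinery that ends, degrades or edits antisense transcripts were also read. Of 24 genes of the nuclear exosome and its cofactors, 9 rose and 7 fell with lurbinectedin, with a median log2 fold change of 0.07. The 2 genes of each list with the smallest adjusted p are named, and in this list both fell. MTREX, the exosome helicase, fell from 219, 220 and 206 CPM to 48.9, 52.1 and 53.5 (log2 fold change -2.06, SE 0.126, adjusted p 5.27e-09), and ZCCHC7, its partner in the nucleolus, fell as well (-2.88, SE 0.186). Of 20 genes of the Integrator complex and of early termination, 6 rose and 12 fell, with a median of -0.56. INTS9, of the Integrator cleavage module, fell from 34.1, 34.4 and 33.0 CPM to 1.40, 2.07 and 1.71 (-4.28, SE 0.195, adjusted p 3.95e-10), and INTS4 fell by 1.92 on the log2 scale (SE 0.116). Among 10 genes that bind, edit or cut double-stranded RNA, 3 rose and 6 fell, with a median of -0.40: STAU2, a double-stranded RNA-binding protein gene, fell by 4.79 (SE 0.223) and DGCR8, the partner of Drosha, rose by 2.04 (SE 0.109). For all genes tested 36.0% rose and 35.7% fell, with a median of 0.05, and the relation of these lists to the members was not tested. Teriflunomide called 0 of 24, 1 of 20 (lower) and 3 of 10 (1 higher, 2 lower) genes of these lists, where 3.88% of all genes rose and 2.13% fell.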

How the data were processed

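Values are raw read counts per gene, 1 table per library, as deposited by the authors. Per the submitters' processing notes, which give no order or roles, fastp 0.23.2, STAR 2.7.9, Subread and featureCounts were used with hg38. The labels' protocols name RNeasy Plus Mini for extraction and KAPA mRNA HyperPrep for the libraries. The annotation release, the strand setting and the treatment of multi-mapping reads are not given in the sources used here. Start and end of all 37318 gene IDs with the same version in GENCODE 29 were the same there, so coordinates are GRCh38, and symbols matched 60507 IDs (99.8%).

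The counts were fitted with edgeR 4.0.16 (R 4.3.3): filterByExpr, TMM scaling, a robust quasi-likelihood model with 1 mean per group over all 12 libraries, and Benjamini-Hochberg adjustment over 16683 genes. All 364 members passed the filter. Ratios of antisense to sense counts were tested with limma 3.58.1 on log2 values with a pseudocount of 0.5, over 6039 pairs, which are opposite-strand genes that overlap or lie within 5 kb and the members with their sense genes, of which FAM131B-AS2 lies on the same strand. A sense gene is the gene whose symbol is the member's without the suffix. DESeq2 1.42.0 was an alternative. On simulated counts for lurbinectedin against control (16188 genes), edgeR recovered 72.2% of 97 genes changed 2-fold and 94.9% of 99 changed 4-fold, with 2.96% false calls. The limma ratio test on 5768 simulated pairs recovered 33.3% of 75 pairs changed 2-fold and 91.7% of 72 changed 4-fold. The simulation changed few genes, balanced up and down, whereas 71.6% of all genes were called in the data. Its rates therefore do not carry over directly to the real comparison.

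Named with values are the 6 members with the highest mean, the 8 largest called rises and 8 largest called falls with lurbinectedin among groups that do not overlap, the 6 smallest adjusted p with teriflunomide, the 6 largest ratio changes among pairs called in opposite directions and the 4 largest antisense changes among pairs called the same way, the 3 genes on each side of the 1 CPM limit, the 3 pairs with the most shared exon bases, and the 2 genes of each list with the smallest adjusted p for lurbinectedin. EIF1B-AS1, TRIM52-AS1 and RTCA-AS1 were chosen for their close starts after their values were seen, as was the comparison of the combination with teriflunomide. The members and lists were chosen with earlier results of these data known. Low-count ratios have exact 95% intervals, which cover counting error only.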

Additional observations from a re-analysis of the deposited data

How the results depend on the processing

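The counts of members called for lurbinectedin against control (232), the combination against control (227) and the combination against teriflunomide (247) stayed within 1.5 times under every alternative, at 163 to 270, 153 to 244 and 165 to 248, and the ratio count for lurbinectedin (222) did at 199 to 233. The 34 members called for teriflunomide became 10 with library size as the only scaling, 52 with DESeq2, 0 by TREAT against a 1.5-fold change, 8 with only the groups compared in the fit, and 8 to 42 when 1 library was left out, and its 17 ratio calls became 7 to 28. The 0 members for the combination against lurbinectedin became 2 with DESeq2 and 0 to 9 when 1 library was left out (ratio: 0 to 4), and the 0 of the interaction became 2 without the filter on low counts, 3 with DESeq2 and 0 to 6 when 1 library was left out. TREAT left 25 pairs with opposite calls, 21 with the longer gene lower, and leaving out 1 library gave 48 to 73 and 36 to 57. With the replicate number as a block, 15 members were called for teriflunomide and no other count moved by over 1.5 times. Shares over all genes are not given for the counts in this paragraph, which show only how far the totals move. Same-numbered libraries of different groups did not deviate together (18 correlations, -0.402 to 0.144, 1 over 0.1). The labels do not say whether equal numbers share a culture or day, and correlations over so few libraries cannot exclude it. For single named genes, 816 alternative values kept direction and call, 37 lost the call, 2 gained one and 0 reversed. At this depth a gene at 1 CPM has about 23 to 33 counts per library, so changes of members near that level carry wide errors.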

Other observations

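Groups of members named here were chosen after their values were seen. The 21 antisense RNAs whose sense gene is a ZNF gene, a family of zinc-finger transcription factors, included 8 that rose and 1 that fell with lurbinectedin (36.0% and 35.7% of all genes), with a median log2 fold change of 0.29. Their 21 sense genes included 14 that rose and 4 that fell, with a median of 0.56. ZNF561-AS1, whose start lies 13 bases from that of ZNF561, rose by 0.84 and ZNF561 by 1.70, so both directions of that start region were higher. ZNF528-AS1 and ZNF528, with starts 66 bases apart, rose by 1.67 and 1.16. ZNF793-AS1 is the 1 member of the group that fell (-1.61), while ZNF793 rose by 0.56.

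Of the 5 antisense RNAs of HOX clusters, 3 rose and 1 fell with lurbinectedin, where 36.0% and 35.7% of all genes rose and fell. HOXB-AS1 rose from 11.2, 11.3 and 11.7 CPM in control to 22.4, 21.7 and 19.8 (log2 fold change 0.90, SE 0.147, adjusted p 7.95e-05 by edgeR). HOXA-AS2 rose from 11.4, 10.3 and 10.7 CPM to 18.5, 15.4 and 16.5 (0.64, SE 0.137) and HOXB-AS3 from 37.9, 38.4 and 35.8 CPM to 52.5, 42.7 and 45.2 (0.33, SE 0.111). HOXA-AS3 fell from 2.08, 1.70 and 1.58 CPM to 0.436, 0.664 and 0.944 (-1.35, SE 0.403, adjusted p 0.00810 by edgeR), the reverse of HOXA-AS2 in the same cluster. HOXA-AS3 was under 1 CPM with lurbinectedin and met the rule through other groups, which favours a fall. HOXC-AS3 overlapped between the groups, at 1.57, 1.77 and 1.82 CPM in control and 1.99, 1.17 and 2.03 with lurbinectedin.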
